A study of Mus musculus with 192 samples.

Results

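The genes described here encode collagens, laminins and nidogens, fibronectin and fibulins, integrin subunits, and the Mmp and Adamts proteases, measured across a grid of positions in the mouse brain. They were matched by gene symbol, and 70 genes on 110 rows of the array table matched. A row was kept when no dataset had fewer than 80% of its arrays measured, and rows of one symbol were averaged. This left 59 genes on 91 rows, of 15608 features (genes, or rows with no symbol) in all. The 11 genes with no kept row were Adamts1, Mmp1b, Mmp3, Mmp7, Mmp8, Mmp9, Mmp10, Mmp12, Mmp13, Mmp14 and Mmp20. All chosen collagens, laminins, nidogens and integrins were kept, with 7 of 8 Adamts genes and 5 of 15 Mmp genes.

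Each sample was a voxel, a small cube of brain tissue, hybridised on a 2-colour array against RNA of whole mouse brain. All animals, those behind the whole brain RNA included, were C57BL/6 males of postnatal day 56, and the labels call the voxel RNA pooled without giving a number of animals. The arrays form 3 datasets that the labels name biological replicates, with 59, 68 and 65 arrays. They cover 68 positions named by a row, A to G, and a column, 1 to 11, of which 56 were measured in 3 datasets and 12 in 2. Voxel RNA carried Cy3 in datasets 1 and 3 and Cy5 in dataset 2, so dye and dataset cannot be told apart. The labels give no anatomical direction for rows or columns.

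Collagens and laminins are structural proteins of the extracellular matrix. Fibrillar collagens form the fibres of connective tissue, which in the brain is largely confined to the meninges and larger vessels, while type IV collagen, laminins and nidogens form the basement membranes of brain vessels and of the pial surface. Integrins are cell surface receptors made of an alpha and a beta chain that bind these proteins, and Mmp and Adamts enzymes cut matrix proteins.

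Values are log2 ratios, likely of voxel over whole brain, although the labels do not name the numerator. The rows had been centred on their own median before deposit, so a value compares one position with the others and gives no level relative to whole brain. The lowest correlation between 2 arrays of one dataset was -0.573. The sign was left as deposited, as the dyes are stated, and the cause of the negative correlation was not tested. Values at the floor of the table (-6.64, a ratio of 0.01) were treated as not measured. Over 10% of values were lost in this way or missing on 3 arrays, all of dataset 3, at G3 (20.3%), G6 (15.1%) and G8 (41.5%). Of the lists of regional markers, 6 of 8 measured striatal genes and 3 of 6 measured cortical genes differed among positions, against 4.92% of all features. These lists were written with earlier results of these data known, so the counts are no independent check.

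The promoter sequences of the 2 members whose maps differed most among positions are shown so that the genes can be identified and compared. They are the 250 bases upstream of the annotated start, from RefSeq on GRCm38.p6, at chr2:155775092-155775341 on the plus strand for Mmp24 and at chr10:76726045-76726294 on the minus strand for Col6a1. Both are written 5′ to 3′ along the gene, with capitals marking GC boxes (GGGCGG, or CCGCCC on the other strand).
Mmp24: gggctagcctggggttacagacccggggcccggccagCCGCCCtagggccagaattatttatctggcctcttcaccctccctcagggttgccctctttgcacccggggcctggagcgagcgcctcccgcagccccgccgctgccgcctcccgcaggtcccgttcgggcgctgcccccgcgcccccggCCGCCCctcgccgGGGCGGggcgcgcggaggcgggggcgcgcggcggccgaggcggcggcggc
Col6a1: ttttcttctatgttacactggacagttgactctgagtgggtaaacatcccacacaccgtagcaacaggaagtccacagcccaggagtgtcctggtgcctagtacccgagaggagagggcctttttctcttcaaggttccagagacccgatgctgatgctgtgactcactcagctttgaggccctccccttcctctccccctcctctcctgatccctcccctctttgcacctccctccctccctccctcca
The Mmp24 window holds 3 GC boxes and 33 CpG dinucleotides at 79.2% G and C, and the Col6a1 window holds 0 GC boxes and 3 CpG dinucleotides at 56% (median of all promoters 52.4%). A promoter was found for 35 of the 59 members. A GC box was in 21 of these (60%), against 32.7% of 32851 promoters. The letters TATAAA or their complement were in 1 of the 35 (2.86%), against 12.4% of all, and CCAAT or its complement in 12 (34.3%), against 33.8%. For the members only the first listed promoter of each gene was read. The 32851 hold every listed promoter, of genes measured here or not, so the shares come from unlike sets. A match describes the letters only.

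The first comparison asked which members differed among the 68 positions. Of the 59 members, 1 passed, the protease gene Mmp24, in a moderated F test by limma, blocked on dataset, at an adjusted p under 0.05 over all features. Of all features 768 passed, which is 4.92%. At an unadjusted p under 0.05 there were 7 members (11.9%), against 13.3% of all features. The median F was 1.01 over the members and 1.04 over all features. In bulk tissue, fewer cells of a type and less RNA per cell cannot be told apart. The datasets are the only replicates, so p-values measure the spread between them.

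**Figure D1:**
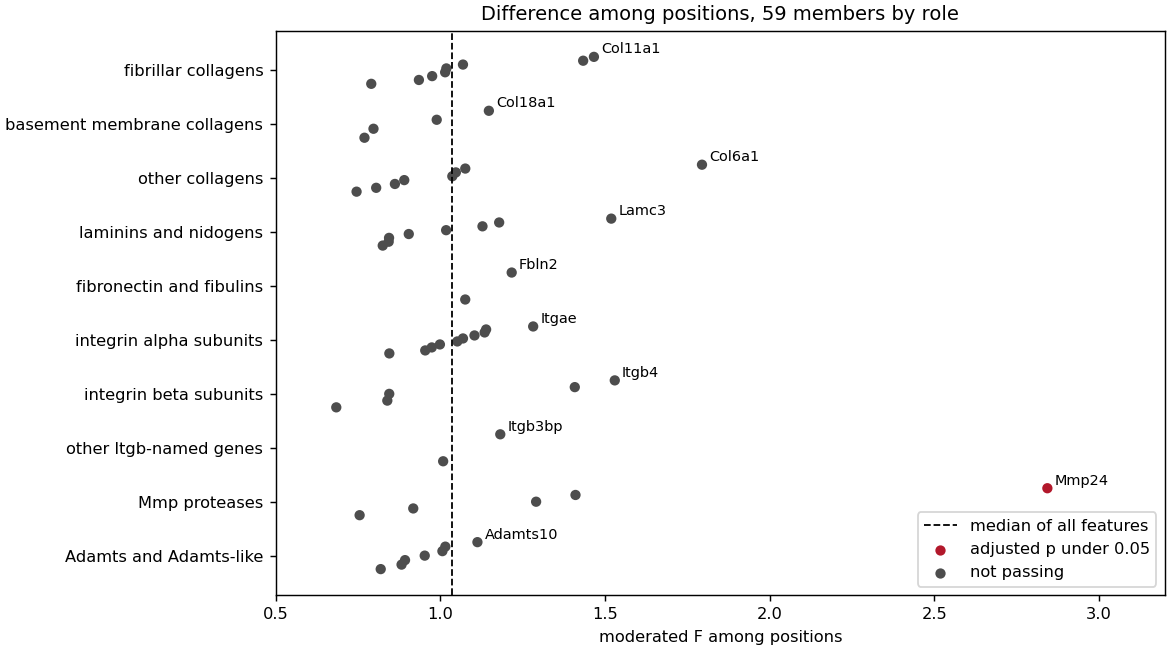
Moderated F among positions (horizontal axis) for each of the 59 members, one point per gene, in rows by role, with the gene of largest F named. The dashed line is the median of all features, 1.04; only Mmp24, in red at 2.84, has an adjusted p under 0.05.

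Mmp24 encodes a membrane-anchored matrix metalloproteinase that is expressed mainly in the nervous system. At G6, its highest position, it read 2.20 in dataset 1 and 1.15 in dataset 2 (mean 1.67 ± 0.75, SD, n = 2). In dataset 3 it was missing or at the floor there. At G5, the neighbour with the lowest mean, it read -1.55 in dataset 1 and -0.08 in dataset 2. A second run of high values lay at the high-numbered end of row A. At A9 the 3 datasets gave 0.33, 0.82 and 0.73. At A10 datasets 2 and 3 gave 0.71 and 0.66. In the interior, D6 read 0.38, 0.60 and 1.09, all above 0. The moderated F was 2.84 (adjusted p = 2.4e-05). The Mmp24 maps of datasets 1 and 2 correlated over shared positions at a Spearman rho of 0.404, those of datasets 1 and 3 at 0.444 and those of datasets 2 and 3 at 0.255. The medians over the members were 0.0571, 0.0240 and -0.0038.

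**Figure D2:**
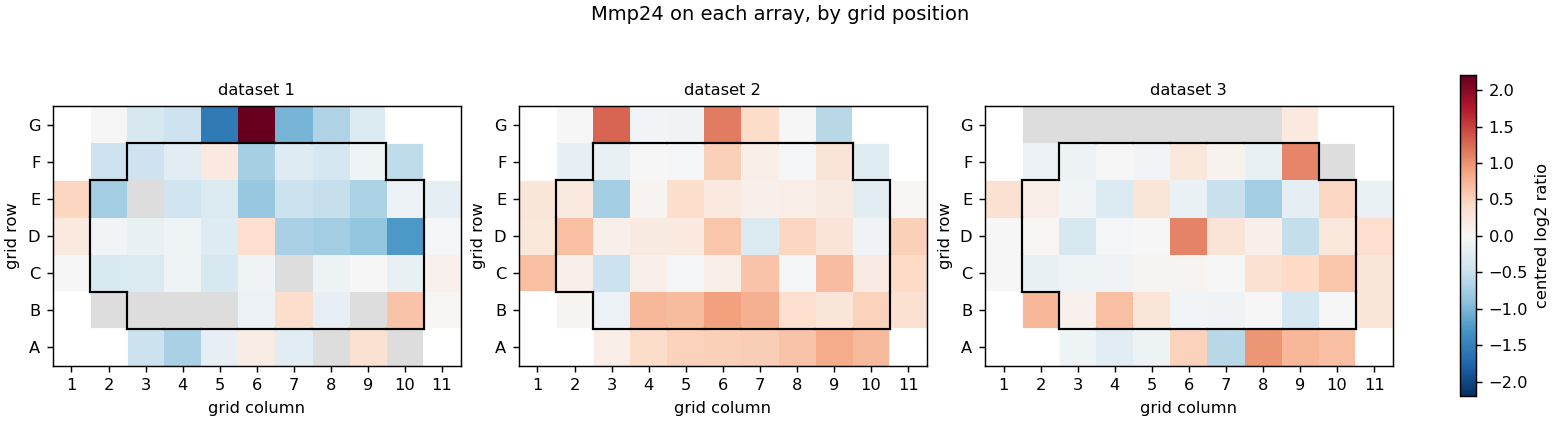
Centred log2 ratio of Mmp24 (colour) at each grid position, one panel per dataset, with grid columns across and grid rows upward; the black line encloses the 42 interior positions and grey marks positions with no value. G6 is the darkest red in dataset 1 (2.20) and among the highest in dataset 2 (1.15), and most of row G has no value in dataset 3.

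The Mmp24 result rests on 1 of its 2 rows and leans on dataset 1. The other row, measured on 165 arrays (85.9%), was not kept because 75% of the arrays of dataset 2 had a value. It had an F of 0.985 (adjusted p = 0.900) and correlated with the kept row at 0.144 over arrays, although at G6 it read 0.63, 2.66 and 1.46 in datasets 1 to 3. Without dataset 1 the F was 1.70 (adjusted p = 0.320). Without the arrays of G6, an alternative chosen after the data were seen, it was 2.30 (adjusted p = 0.00176). With values at the floor kept, Mmp24 did not pass (given below), so the result also depends on leaving them out.

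Among the other proteases no member passed. Mmp16, a membrane-type relative of Mmp24, was highest at E11, where a single array decided the mean: the datasets read 2.36, 0.03 and 0.03 (F 1.41, adjusted p = 0.373). Mmp17, anchored to the membrane by a lipid, read 2.24, 1.52 and 0.32 at E2, its highest position (F 1.29, adjusted p = 0.553). Mmp2, a gelatinase that cuts type IV collagen, had an F of 0.754. The largest F of the Adamts group was that of Adamts10 (1.11, adjusted p = 0.779), which averaged 0.83 ± 1.42 at G9 (SD, n = 3).

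Of the fibrillar collagens 0 of 8 passed, and Col11a1 and Col1a2 came closest. Col11a1, a minor fibril chain best known from cartilage, read 0.01, 0.13 and 5.28 at C5, so its highest position came from dataset 3 alone. At D5 beside it, its lowest position, it read -0.88, -0.62 and -1.89 (F 1.47, adjusted p = 0.300). Col1a2, a chain of type I collagen, was low along row F. At F5 it read -1.12, -0.68 and -0.70, and at C1, its highest position, 0.20, 1.84 and -0.02 (F 1.43, adjusted p = 0.338). Col1a1, the other chain of type I collagen, was also highest at C1 (1.45 ± 0.35, SD, n = 2), with an F of 1.07. Over the 68 position means Col1a1 and Col1a2 correlated at a Pearson r of 0.339 (Spearman rho 0.383), a description over positions that share arrays.

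The basement membrane collagens varied little. Col18a1, whose cleaved end is endostatin, had the largest F of the 4, 1.15 (adjusted p = 0.741), and the type IV chains Col4a1 and Col4a2 had 0.769 and 0.988. Both type IV chains were highest at G3 (Col4a1 0.37 ± 0.76 and Col4a2 0.55 ± 1.13, SD, n = 3 each), with spreads larger than the means, and G3 of dataset 3 is one of the 3 arrays with many lost values. Their position means correlated at an r of 0.276 (rho 0.259).

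Col6a1, a chain of the microfibril-forming type VI collagen, came nearest to the threshold after Mmp24 (F 1.79, adjusted p = 0.0503). It was high at the low- and high-numbered ends of the middle rows. D11 read 0.31, 0.78 and 0.26, and E1 read 0.42, 0.53 and 0.26. It was lowest at F4, with -0.94, -1.30 and -0.26, and at E5, with -0.39, -0.99 and -0.49. In row A it was low too, with -0.75, -0.33 and -0.31 at A7. The other 7 collagens of the mixed group had F values between 0.745 and 1.08.

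**Figure D3:**
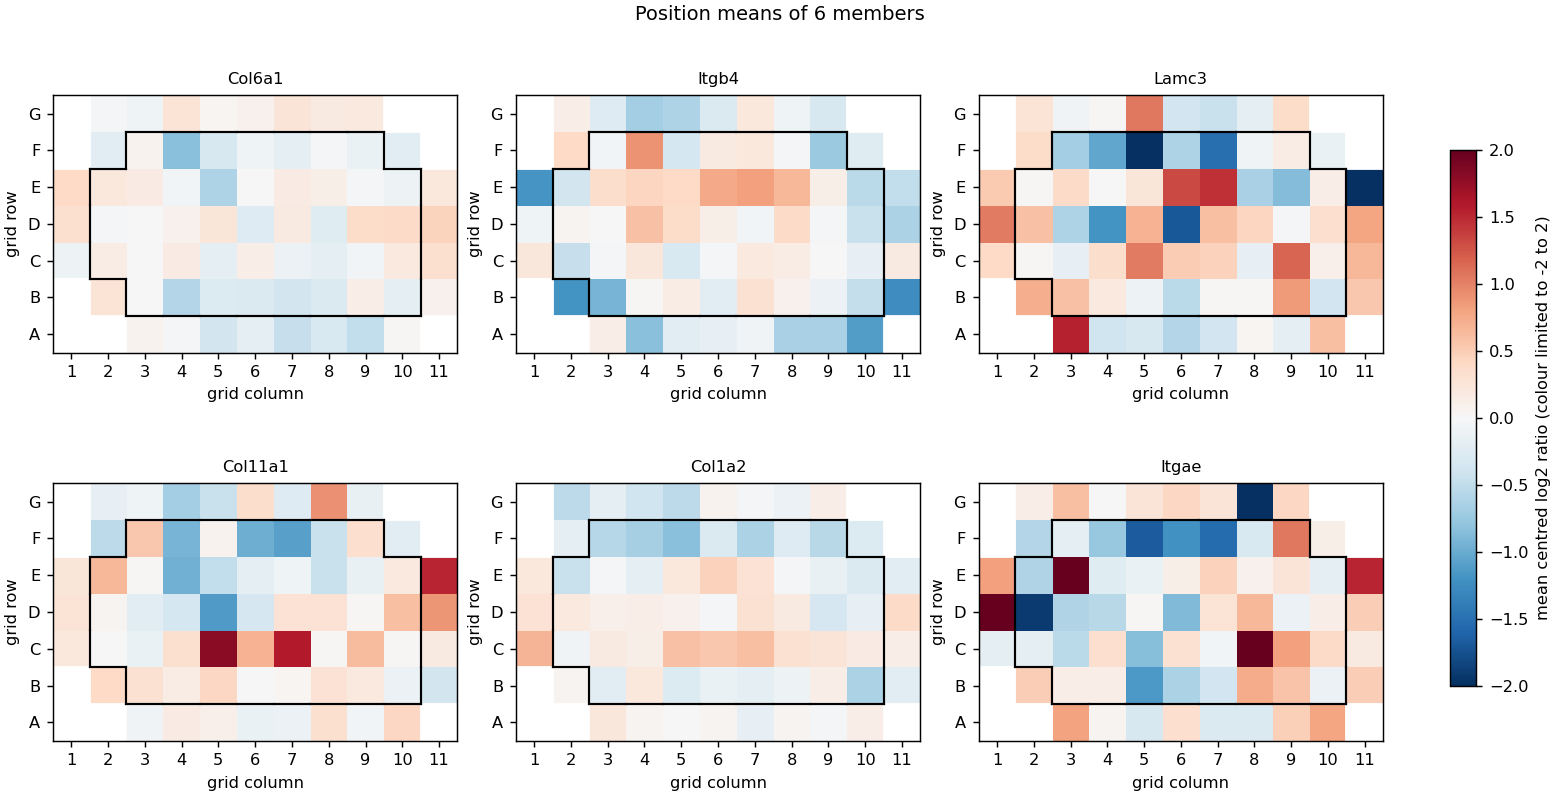
Mean centred log2 ratio over datasets (colour, limited to -2 to 2) at each grid position for 6 members, grid columns across and grid rows upward, with the interior inside the black line. Col6a1 has its lowest mean at F4 (-0.83) and its highest at D11 (0.45), Col1a2 is low along row F, and single dark cells such as Col11a1 at C5 (1.80 ± 3.01, SD, n = 3) come from 1 dataset.

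Laminins are trimers of an alpha, a beta and a gamma chain. Lamc3, a gamma chain, had the largest F of the 8 laminin and nidogen genes, 1.52 (adjusted p = 0.253). It read 1.45 and 1.63 at A3 in datasets 1 and 3, against -3.68 and -2.39 at E11, its highest and lowest positions, with n = 2 at each. Lamb1 and Lamc1, chains that occur in the same trimers, correlated at an r of 0.313 (rho 0.359) over position means, and Lama5 and Lamb1 at -0.0459 (rho -0.0347). Nid1, which links laminin to type IV collagen, correlated with Lamc1 at 0.182 (rho 0.232). Fbln2, a fibulin that binds laminin and nidogen, read 0.58, 0.40 and 0.77 at E4, above 0 in each dataset (F 1.22, adjusted p = 0.650). Fn1, fibronectin, was highest at C1 (0.76 ± 0.73, SD, n = 3).

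Of the 10 integrin alpha chains none passed, and at an unadjusted p under 0.05 there were 0. Itgae, the alpha chain of a lymphocyte receptor for E-cadherin, had the largest F, 1.28. Its position values had a range of 5.20, which includes E3, where a single array read 3.18. Its highest mean over at least 2 arrays, at D1, joined -0.38 in dataset 1 and 4.66 in dataset 3. Itgal, the alpha chain of the leukocyte receptor LFA-1, read 0.07, 0.12 and 5.51 at G8. Itga9, Itgax and Itgb2 were highest at G8 as well, with spreads of 1.12, 3.84 and 1.79 over 3 datasets, and the G8 array of dataset 3 is the one that lost 41.5% of its values. The part of that array in these maxima was not tested.

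Of the 5 integrin beta chains none passed. Itgb4, which pairs with Itga6 in a laminin receptor of epithelia, had an F of 1.53 (adjusted p = 0.226). Its highest position, F4, read -0.36, 3.36 and -0.33, and its lowest, B11, read 0.01, -0.73 and -3.03, so the positions overlapped. Its maps of datasets 2 and 3 correlated at a rho of 0.539, the highest of any member and pair of datasets, and without dataset 1 it passed (F 2.43, adjusted p = 0.0131). Itgb1, the beta chain shared by most matrix-binding integrins, was highest at A10, with 2.16 in dataset 2 and 0.91 in dataset 3. That mean came from 1 of its 3 rows, which read 6.65 and 2.35 there, while the others read -0.48 and -0.26, and 0.32 and 0.64.

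Chains known to pair were compared over the 68 position means as a description. Itgax and Itgb2 correlated at a Pearson r of 0.449 (Spearman rho 0.271), Itgal and Itgb2 at 0.416 (rho 0.209), and Itga4 and Itgb7 at 0.387 (rho 0.359). Itgal, Itgax and Itgb2 share the G8 maximum described above. Itgae and Itgb7 correlated at an r of 0.0664 (rho 0.115), and Itga5 and Itgb1, the chains of the main fibronectin receptor, at -0.203 (rho -0.191). Of the other Itgb-named genes, Itgb3bp, which encodes a centromere protein, read 5.03, -0.24 and -0.52 at C2 (F 1.18, adjusted p = 0.705).

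The highest position of a member lay on the perimeter of the grid for 35 of 59 members (59.3%), against 47.1% of all features, where 38.2% of positions are on the perimeter. The lowest lay there for 29 members (49.2%), against 44.2%. G3 was the highest position of 6 members, among them Col4a1, Col4a2 and Itga3, and its array of dataset 3 lost 20.3% of values. A10 was the highest of 5 members, and C1 of 4 (Col1a1, Col1a2, Fn1 and Adamtsl1), as was G8 of 4. The interior position F4 was the highest of 5 members and the lowest of 4. Shares of all features at single positions were not computed, so these counts are a description.

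The second comparison asked whether members differed between the outline of the grid and its inside. The perimeter was defined as the 26 positions lacking at least 1 of 4 side neighbours, and the interior as the other 42. Within each dataset the difference of the zone means was taken, and limma tested the 3 differences against 0. Of the 59 members 0 passed in either direction, against 17 of all features (0.109%), all lower on the perimeter. At an unadjusted p under 0.05 there were 5 members (8.47%), against 13.4% of all features. The median difference was 0.07 over the members and 0.03 over all features, with 43 members (72.9%) above 0, against 58% of all features. In all 3 datasets 14 of the 59 members were higher, against 20.8% of all features, and 5 lower, against 15.9%.

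Itgae had the largest and most even difference. Its perimeter means were -0.02, 0.10 and 0.92 in datasets 1 to 3, against interior means of -0.54, -0.41 and 0.41. The perimeter was the higher zone in each dataset, by 0.52, 0.51 and 0.51, or 1.43-fold (0.51 ± 0.01, SD, n = 3, adjusted p = 0.0908). Among the other integrin alpha chains 8 of 9 had a mean difference above 0, with Itgal at 0.19 ± 0.17 (higher in 3 of 3 datasets, adjusted p = 0.420). Without the arrays with over 10% of values lost, the array of G8 in dataset 3 among them, Itgal had 0.06 (adjusted p = 0.760), and over all alternatives it had 0.01 to 0.25. Itgb4 lay the other way at -0.43 ± 0.56, higher on the perimeter in dataset 1 alone (adjusted p = 0.370).

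All 4 basement membrane collagens and all 8 collagens of the mixed group had mean differences above 0, against 58% of all features. None of these passed, and 2 of the 4 and 2 of the 8 were above 0 in all 3 datasets. Above 0 were also 6 of 8 fibrillar collagens, 6 of 8 laminins and nidogens, 4 of 5 Mmp and 4 of 7 Adamts genes. By contrast 1 of 5 integrin beta chains, 1 of 2 fibronectin and fibulin genes and 0 of 2 other Itgb-named genes were above 0. Col4a2 averaged 0.03, 0.34 and -0.08 on the perimeter, against -0.07, 0.12 and -0.24 in the interior (0.16 ± 0.06, adjusted p = 0.427). Its partner Col4a1 had differences of 0.07, 0.20 and 0.10 (adjusted p = 0.538). The type I chain Col1a1 had 0.09, 0.16 and 0.31 (0.19 ± 0.12, adjusted p = 0.383), while Col1a2 had 0.04, 0.10 and -0.01. Col5a3, a type V chain, was lower on the perimeter in each dataset, with means of 0.08, 0.06 and -0.80, against 0.17, 0.44 and -0.21 in the interior (-0.35 ± 0.26, adjusted p = 0.270).

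Lama1, an alpha chain found in the pial basement membrane, had differences of 0.14, 0.08 and 0.25 (0.16 ± 0.09, adjusted p = 0.445). Lama3, an alpha chain of epithelial laminin, had 0.49, -0.02 and 0.46 (adjusted p = 0.325). Lamc3 had -0.01, 0.31 and 0.28 (adjusted p = 0.415). So Lama1 was the one of these 3 above 0 in every dataset. Fbln2 was lower on the perimeter by nearly the same amount each time, at -0.19, -0.16 and -0.18 (-0.18 ± 0.01, adjusted p = 0.363).

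Of the proteases, Mmp24 had even differences of 0.13, 0.12 and 0.15 (adjusted p = 0.484). Adamts17, a secreted protease, had 0.21, 0.07 and 0.17 (adjusted p = 0.454). Adamts9, which cuts versican, averaged -0.14 ± 0.14 and Adamts12 -0.09 ± 0.10, both higher in dataset 1 alone. Itgb1bp1, which binds the tail of Itgb1, was lower in each dataset (-0.13 ± 0.11, adjusted p = 0.528). Itgb3bp (-0.13 ± 0.27) and the type V chain Col5a2 (-0.14 ± 0.22) were higher on the perimeter in 1 of 3 datasets.

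**Figure D4:**
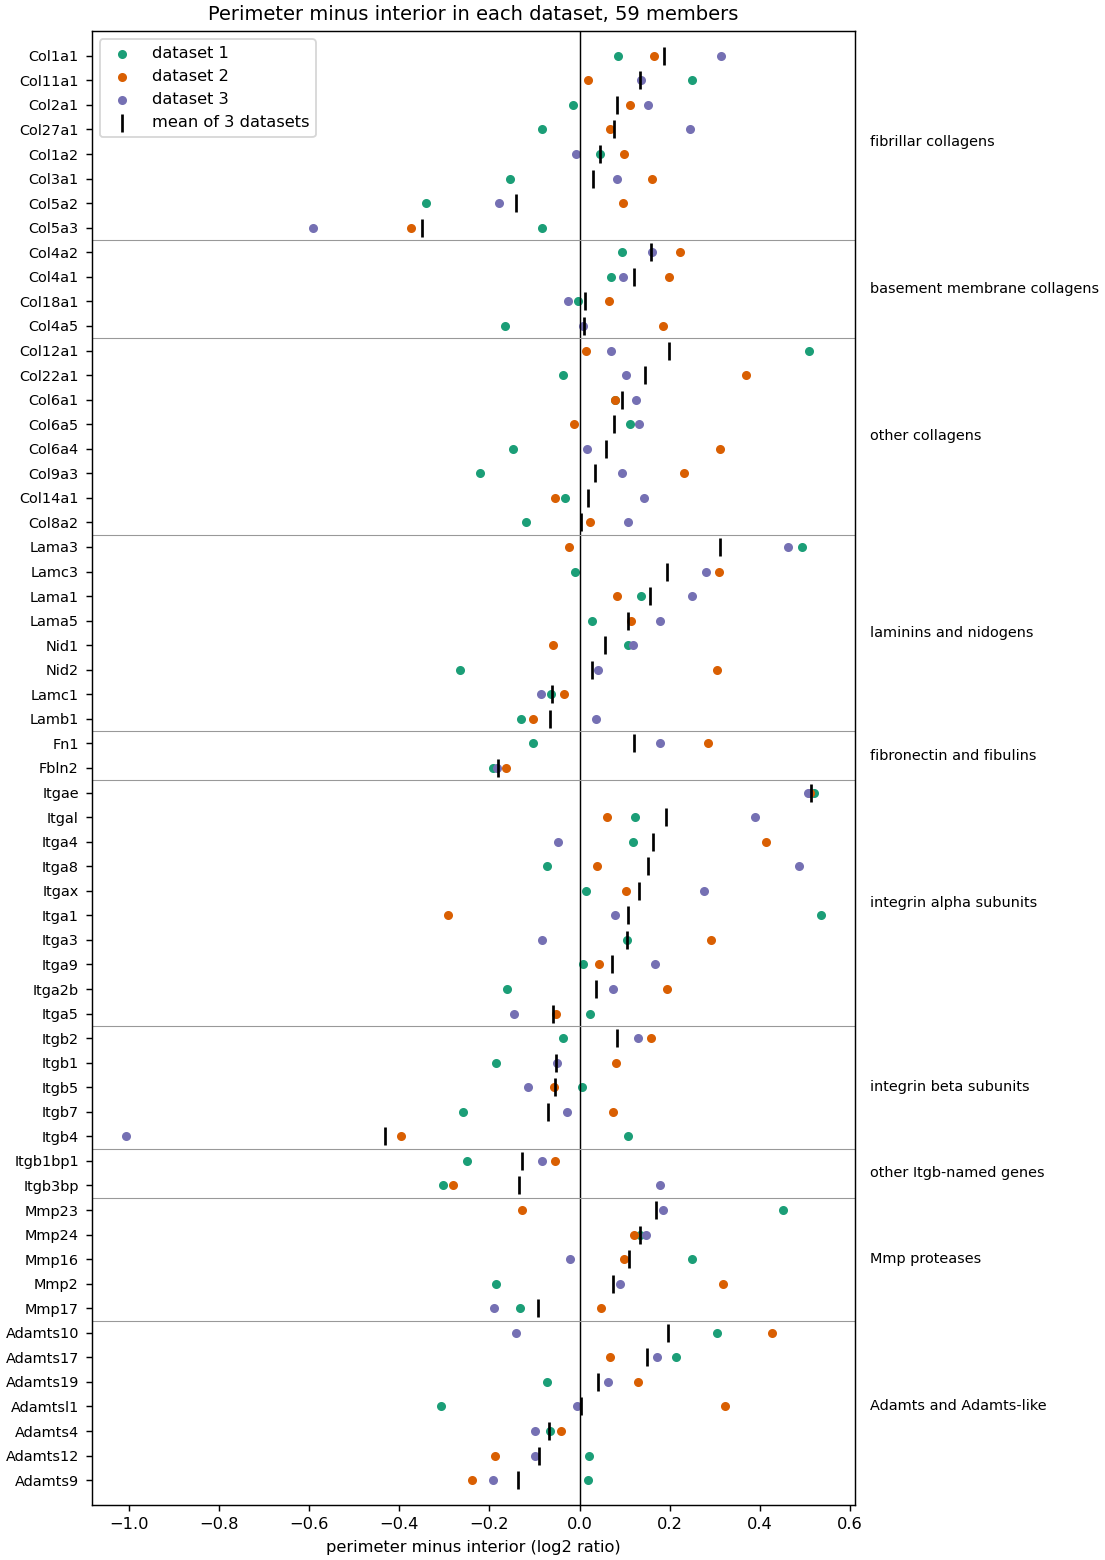
Perimeter minus interior difference in log2 ratio (horizontal axis) for the 59 members, grouped by role, with a coloured point per dataset and a black bar at their mean. Itgae has 3 points together at 0.51 to 0.52, Fbln2 has 3 between -0.19 and -0.16, and most other genes spread across 0.

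Lists of cell type markers, also written with earlier results of these data known, were read across the same zones. Of 17 listed meningeal and fibroblast genes 10 were measured, 3 of them members (Col1a1, Col1a2 and Col3a1). Their mean difference was 0.06 ± 0.14 (SD, n = 3), with 8 above 0, where 58% of all features were above 0. The 6 of 20 vessel genes had 0.04 ± 0.10 (3 above 0), and the 4 of 15 microglial genes -0.18 ± 0.09 (1 above 0). The 4 of 20 myelin genes had -0.81 ± 0.14 (0 above 0), with 3 lower on the perimeter by the test, which 0.109% of all features passed. The 8 of 20 striatal genes had -0.39 ± 0.05 (2 above 0), with 2 lower by the test. The 3 of 14 choroid plexus genes had -0.21 ± 0.08 (1 above 0) and the 4 of 10 astrocyte genes -0.12 ± 0.06 (0 above 0). The 6 of 20 cortical genes had 0.13 ± 0.15 (4 above 0) and the 2 of 7 blood genes -0.05 ± 0.05 (1 above 0). Ratios of this kind do not show whether a marker is absent. A median of 1.27%, 2.46% and 1.82% of values was lost on the perimeter in datasets 1 to 3, against 1.80%, 1.75% and 0.771% in the interior. The part of tissue makeup in the member differences was not tested.

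The perimeter was then split into row A (8 positions), row G (8) and the sides (10), each set against the same interior arrays, so the 3 results are not independent. Of the members 0 passed at row A and 0 at row G, where 0% of all features passed, and 0 at the sides, where 9 features did (0.0577%). At an unadjusted p under 0.05 there were 4 members (6.78%) at each edge, against 5.93% of all features at row A, 6.81% at row G and 12.7% at the sides. At row A, 10 of the 59 members were higher in all 3 datasets, against 11.3% of all features, and 8 lower, against 15.2%. At row G, 12 of the 59 were higher, against 19.4% of all features, and 5 lower, against 13%. At the sides 13 of the 59 were higher, against 22.1%, and 4 lower, against 14.9%.

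Col6a1 had a mean below the interior at row A and above it at the other edges. At the sides it exceeded the interior by 0.20, 0.24 and 0.22 (0.22 ± 0.02, SD, n = 3, adjusted p = 0.365), and at row G by 0.20, 0.16 and 0.25. At row A it was lower by the mean, with -0.25, -0.22 and -0.07. Tested directly, in a comparison added after the data were seen, row A minus row G was -0.38 ± 0.07 (lower in 3 of 3 datasets, adjusted p = 0.636) and row A minus the sides -0.40 ± 0.10 (adjusted p = 0.744), so the difference between edges did not pass. Itgb1 had 0.34, 0.10 and 0.33 at row A and -0.31, -0.01 and -0.20 at the sides (row A minus sides 0.43 ± 0.29, adjusted p = 0.752). Row A includes A10, where 1 of the 3 rows of Itgb1 read 6.65 and 2.35 in datasets 2 and 3. With only rows measured on every array, the row A difference was -0.13.

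Itgae was above the interior at the sides by 0.66, 0.56 and 1.06 (0.76 ± 0.27, adjusted p = 0.139) and at row G by 0.09, 0.71 and 0.59. With floor values kept, the mean difference of Itgae at row G was -0.32. Lamc3 (0.33 ± 0.19, adjusted p = 0.295) and Mmp16 (0.27 ± 0.11, adjusted p = 0.314) were higher at the sides in 3 of 3 datasets. At row G, Col1a1 had 0.28, 0.36 and 0.44 (0.36 ± 0.08, adjusted p = 0.658), Adamts10 0.50 ± 0.38 and Adamts17 0.32 ± 0.15, each higher in 3 of 3. At row A, Lama3 (0.32 ± 0.13) and Col27a1, a fibrillar chain of cartilage (0.40 ± 0.42), were higher in 3 of 3 datasets, and Adamts9 (-0.33 ± 0.09) lower in 3 of 3 (adjusted p = 0.831 for Adamts9). Col5a3 was lower in each dataset at row A (-0.50 ± 0.25, adjusted p = 0.748) and at row G (-0.46 ± 0.30, adjusted p = 0.658). Mmp17 had -0.57 ± 0.61 at row A and 0.49 ± 0.55 at row G, spreads as large as the differences. Itgb7 was lower by the mean at row G (-0.24 ± 0.37). Itgb1bp1 was lower by the mean at the sides (-0.15 ± 0.12), at row G (-0.15 ± 0.22) and at row A (-0.11 ± 0.14). Fbln2 was lower by the mean at every edge too, at the sides (-0.14 ± 0.11), row G (-0.17 ± 0.11) and row A (-0.24).

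**Figure D5:**
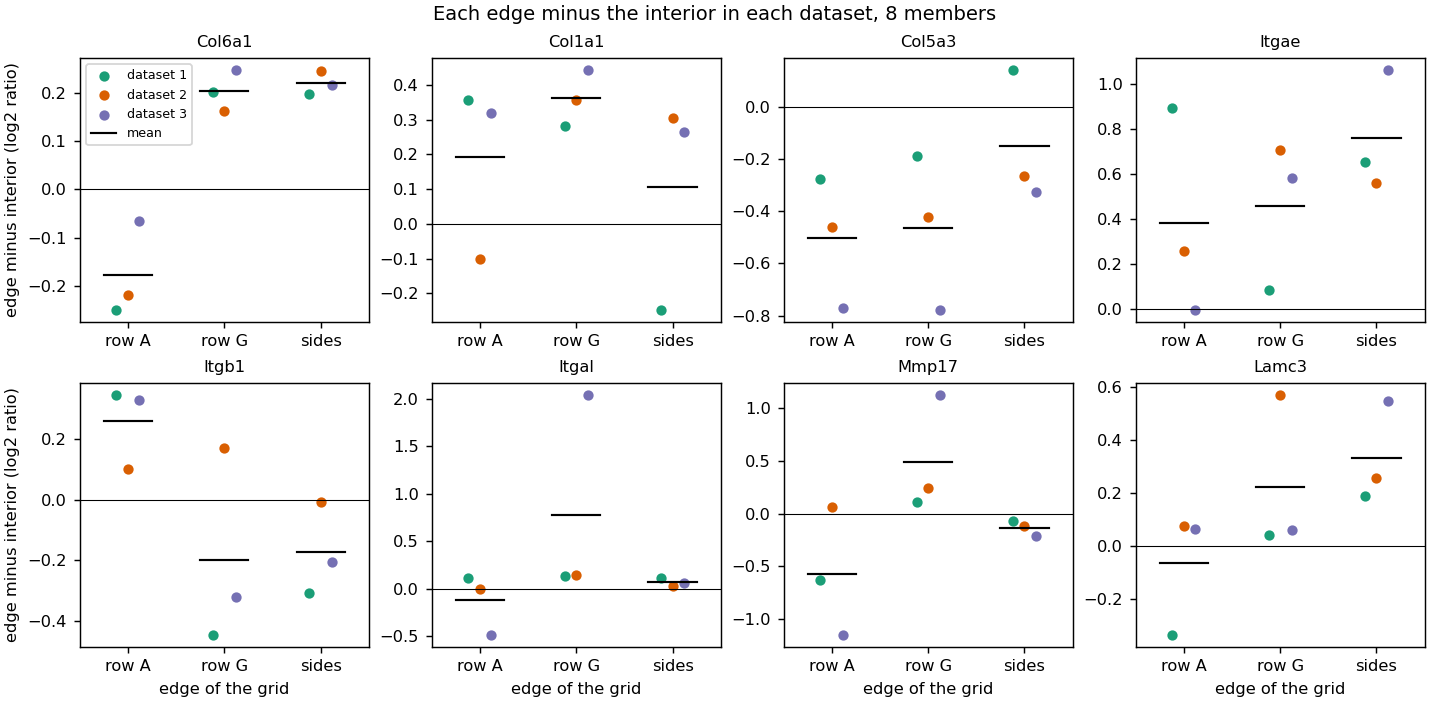
Edge minus interior difference in log2 ratio (vertical axis, scaled per panel) at row A, row G and the sides for 8 members, with a coloured point per dataset and a black line at their mean. Col6a1 lies below 0 at row A and above 0 at row G and the sides in all 3 datasets, while Itgal at row G stands apart in dataset 3 alone and Mmp17 is widely spread at rows A and G.

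Rows A and B were set against rows F and G, the opposite ends of the grid. Of the members 0 passed, against 17 features (0.109%), and 0 had an unadjusted p under 0.05, against 9.03% of all features. In all 3 datasets 12 of the 59 members were higher in rows A-B, against 13.4% of all features, and 7 lower, against 19%. Col1a2 was higher in rows A-B in each dataset, with means of -0.14, 0.07 and -0.16, against -0.28, -0.43 and -0.29 in rows F-G (0.26 ± 0.21, adjusted p = 0.603). All 3 means of rows A-B lay above those of rows F-G. Itga3, part of a laminin receptor, was also higher in 3 of 3 (0.26 ± 0.15, adjusted p = 0.586). Itgal (-0.59 ± 0.78), Adamts9 (-0.28 ± 0.25) and Itgb3bp (-0.27 ± 0.22) were lower in 3 of 3. Without dataset 3 the Itgal difference was -0.14 (adjusted p = 0.733). Itgae (0.56 ± 0.67), Col27a1 (0.40 ± 0.55) and Mmp17 (-0.78 ± 1.00) did not keep one sign.

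The middle columns, 5 to 7, were set against the outer columns, 1 to 3 and 9 to 11. Of the members 0 passed, with 0% of all features passing, and 6 (10.2%) had an unadjusted p under 0.05, against 13.2%. In all 3 datasets 5 of the 59 members were higher in the middle columns, against 18.2% of all features, and 9 lower, against 20%. Itga4, an alpha chain of leukocyte receptors for fibronectin and vascular adhesion molecules, was lower in the middle columns by nearly the same amount each time. Its middle means were -0.59, 0.06 and 0.15, against outer means of -0.36, 0.26 and 0.35 (-0.21 ± 0.02, adjusted p = 0.308). Itgae (-0.52 ± 0.45), Col27a1 (-0.22 ± 0.09) and Lamc3 (-0.27 ± 0.20) were also lower in 3 of 3 datasets. Col8a2, a network-forming collagen chain (0.27 ± 0.39), and Fbln2 (0.12 ± 0.08) were higher in 3 of 3, and Col1a1 (0.25 ± 0.24) and Itgb4 (0.36 ± 0.46) in 2 of 3.

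A list of 130 other matrix and adhesion genes, of which 57 were measured, was read beside the members. The list was written with earlier results of these data known, so the share that passed is a description only. Among positions 6 of the 57 passed (10.5%), against 4.92% of all features. Sparc, a secreted collagen-binding protein made by glia, had an F of 7.53, with its highest mean at B5 (1.32 ± 0.01, SD, n = 2) and its lowest at E1 (-0.77 ± 0.18, n = 3). Timp2, an inhibitor of Mmp enzymes, had an F of 5.38 and was highest at C6 (1.54 ± 0.46, n = 3). The tetraspanins Cd81 (F 2.87) and Cd9 (F 2.50), which bind integrins in the membrane, and the Sparc relatives Spock3 (F 2.22) and Sparcl1 (F 2.21) also passed. On the perimeter 0 of the 57 were higher and 1 lower, Cd9 (-0.84 ± 0.16, lower in 3 of 3 datasets, adjusted p = 0.0266), which is also made by myelinating cells, against 0.109% of all features.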

How the data were processed

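Voxel and whole brain RNA was compared on 2-colour arrays. The authors deposited a table of log2 ratios with 20847 rows, used without spot intensities. Per the labels, Trizol was used to extract RNA, which was then reverse transcribed. How scans were corrected and normalized is not given in the sources used here. Because the labelling protocol names a treatment that no sample has, the dyes were taken from each sample's own label. Genes were named through the platform annotation, leaving out 20 control rows and symbols of another species (46 rows).

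Each array was centred on its median (largest shift 0.353) and rows of 1 symbol were averaged (20 members). All 15608 features were fitted in limma 3.58.1 (R 4.3.3) with Benjamini-Hochberg adjustment. In simulated data the position test recovered 100% of 200 features with position effects of SD 1 residual SD (4.76% of calls false), and the perimeter test recovered 93% with a shift of 0.5 on the log2 scale (3.12% of calls false). The simulated noise was normal and independent between arrays, with no outlying arrays and no variation of a zone between datasets. The rates therefore do not give the recovery in the measured data, where Itgae did not pass at 0.51 ± 0.01 (adjusted p = 0.0908 by limma). The labels call the dataset numbers independent harvests, which pairs the arrays. Highest and lowest positions needed at least 2 arrays.

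Named are members that passed, the 12 with the largest F, the 8 (perimeter) or 4 (other zones) with the smallest p in each direction, the largest F of each role, partner chains, and other matrix genes that passed. Members and lists were chosen with earlier results of these data known. Arrays have no read depth, so their number limits the precision.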

Additional observations from a re-analysis of the deposited data

How the results depend on the processing

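The count of members differing among positions, 1 in the results above (4.92% of all features passed), was 3 with quantile normalization (Col11a1, Col1a2 and Mmp24, with 7.48% of all features passing), 2 with values limited to within 3 of 0 (Col6a1 and Mmp24, 5.2%), 8 with array weights (Adamts10, Col11a1, Col1a2, Col6a1, Fbln2, Itgb4, Mmp16 and Mmp24, or 13.6% of the members against 16% of all features) and 3 with each row on its own (Itgb1, Lamb1 and Mmp24, 4.81%). It was 0 when only rows measured on every array were tested, which leaves Mmp24 out (8.85% of all features), and 0 with rows measured on at least 50% of arrays, which averages in its second row (F 1.12, adjusted p = 0.784, 4.6% of all features). With floor values kept it was 1 (4.17% of all features), but the gene was Itgb1 (adjusted p = 0.0429) and Mmp24 had an F of 1.23 (adjusted p = 0.705). With no replicate block Mmp24 passed at an F of 1.98 (adjusted p = 0.0267, 2.34% of all features). Leaving out each dataset in turn gave Mmp24 an F of 1.70 to 3.22.

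At the sides the count was 1 with the median over positions, Itgae at 0.67 (adjusted p = 0.0326). All other zone counts were 0 under every alternative run, the unpaired fit with no replicate block included. Of the differences of named members 5 changed sign: Itgae at row G (-0.32) and Col6a1 at the sides (-0.024) with floor values kept, Itgb1 at row A with rows measured on every array (-0.13), Adamts12 on the perimeter with the zone median (0.023), and Itgb7 at row G against its own interior neighbours (0.16). The cause was not tested. The other alternatives left the sign of a difference as it was, in 816 cases with no change of call, but sizes moved: 51 of the 56 named differences changed by over 1.5 times under at least 1 alternative. Col1a1 on the perimeter ranged over 0.0088 to 0.37, Itgb4 over -0.70 to -0.15, Itgal over 0.01 to 0.25, Adamts10 at row G over 0.054 to 0.70 and Mmp16 at the sides over 0.043 to 0.32. The order of 7 arrays of dataset 2, row D, is in doubt, and leaving them out changed no call. With 3 datasets, position means rest on 2 or 3 arrays, and single arrays set many of the extremes.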

Other observations

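Rows of one gene often disagreed. For the 20 members averaged over several rows, the 49 pairs of rows correlated over positions at a median of -0.02, with 2 pairs (4.08%) over 0.5, against a median of 0.07 and 8.40% over 0.5 for 5773 pairs of all genes with several rows. The 2 rows of Col22a1, a collagen of tissue junctions, correlated at 0.734, and those of the aggrecan-cutting protease Adamts4 at -0.541. One of 4 rows of Lamb1 passed among positions on its own, with 3.75, 0.43 and 0.46 at C1, where another read -3.77, -0.21 and 0.21.

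Of the 11 members not kept 10 were Mmp genes. Of Mmp9, 79.4% of arrays were measured in the dataset with fewest, of Mmp14 61.8% and of Mmp20 36.8%.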
